A study of Mus musculus with 2 samples.

Results

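The T-lineage cycling cells are spleen cells that carry RNA of the T-cell receptor beta constant genes but lie in clusters marked by dividing cells. They were chosen by the authors' deposited cluster and by counts: a cell belonged if it came from spleen, lay in the cluster HSC-2, HSC-3 or DCP, and held at least 3 unique molecular identifiers (UMIs) of Trbc1 plus Trbc2. This gave 247 cells of 16634 in the series, 133 of them in HSC-2, 89 in HSC-3 and 25 in DCP. They were set against the 693 spleen cells of the cluster LP, most of which also carry Trbc RNA, and against the other 1210 spleen cells of HSC-2, HSC-3 and DCP, called the rest here. The cluster names are those the authors gave, and the sources used here do not spell them out.

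T cells arise from progenitors that seed the thymus, where Notch signals switch on Tcf7 and Gata3 and then Bcl11b, which closes off other fates. The beta, gamma and delta receptor genes are rearranged and transcribed early in this series of steps, the alpha gene later, and receptor chains reach the cell surface only with the CD3 proteins. Early T-lineage progenitors divide many times before and after these steps, and spleen is not a usual place for them in an adult mouse. In division, DNA is copied in S phase together with a burst of histone synthesis, and chromosomes are separated in G2 and M phase.

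All cells came from C57BL/6 mice that carried an orthotopic Hepa1-6 liver tumour, made by injecting 750000 cells of this mouse hepatoma line into the left liver lobe at 6 to 8 weeks of age. Lineage-low or lineage-negative, Sca1-positive, c-Kit-high (LSK) cells, a gate for blood stem and multipotent progenitor cells, were sorted from spleen and from bone marrow. Each tissue gave 1 library of droplet 3′ single-cell RNA-seq, so no animal or library replicate exists for any comparison. How many mice went into a library is not given in the sources used here, and no tumour-free mouse was analysed here. Apart from the Trbc shares, which are also given for bone marrow, all comparisons below are between cells of the same spleen library. All share the tumour, strain and sort, and carry no test.

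The spleen library held 85937174 UMIs in 6546 cells. Depth differed little between the T-lineage cycling cells, with a median of 13077 UMIs (range 3354 to 34587), and the rest, with 12968, but spleen LP cells were shallower at 7899. The T-lineage cycling cells had a median of 3795 genes, against 2829 in LP. After each cell was thinned to 5200 UMIs these medians were 2158 and 2161 genes. The median mitochondrial share was 3.54% in the T-lineage cycling cells, 3.61% in LP and 3.11% in the rest. Across the 2 libraries 16 barcodes were shared, none of them by a T-lineage cycling cell. Levels are given as CPM, the UMIs of a gene per 1000000 UMIs of the summed cells of a group. Intervals are 95% exact Poisson intervals for sums and ratios and 95% Clopper-Pearson intervals for shares, and cover counting error only.

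Promoters of 3 genes that later results turn on are shown here, each from 250 bases before to 50 after the annotated start, from RefSeq on GRCm38.p6. Capitals mark the letters of motifs searched on both strands. The motif CCAAT is the CCAAT box, and TTTGAA is the core of an element known as CHR from promoters of cell-cycle genes. The E-box was searched as CAGNTG. The GATA-type motif was searched as AGATAA. No match overlapped another. Bcl11b encodes the zinc-finger repressor of T-lineage commitment (chr12:108003365-108003664, minus strand), Il2ra the alpha chain of the interleukin-2 receptor (chr2:11642542-11642841, plus strand), and Top2a the topoisomerase that untangles chromosomes for mitosis (chr11:99024140-99024439, minus strand).
Bcl11b: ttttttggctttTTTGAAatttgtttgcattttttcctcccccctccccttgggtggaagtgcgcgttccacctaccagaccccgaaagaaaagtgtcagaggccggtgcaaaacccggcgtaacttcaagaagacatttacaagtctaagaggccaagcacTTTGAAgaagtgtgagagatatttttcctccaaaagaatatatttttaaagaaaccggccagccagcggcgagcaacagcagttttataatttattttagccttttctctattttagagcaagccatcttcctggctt
Il2ra: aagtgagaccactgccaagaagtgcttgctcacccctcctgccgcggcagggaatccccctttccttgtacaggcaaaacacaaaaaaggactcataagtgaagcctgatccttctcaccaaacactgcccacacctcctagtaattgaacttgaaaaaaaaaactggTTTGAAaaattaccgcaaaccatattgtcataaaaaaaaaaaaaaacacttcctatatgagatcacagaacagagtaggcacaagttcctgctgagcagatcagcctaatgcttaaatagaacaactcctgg
Top2a: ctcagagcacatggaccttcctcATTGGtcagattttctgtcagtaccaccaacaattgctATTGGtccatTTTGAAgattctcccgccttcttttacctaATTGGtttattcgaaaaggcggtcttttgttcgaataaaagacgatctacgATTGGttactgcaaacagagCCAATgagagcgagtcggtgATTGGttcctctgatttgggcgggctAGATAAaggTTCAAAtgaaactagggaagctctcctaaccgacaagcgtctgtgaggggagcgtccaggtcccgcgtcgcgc
The Top2a window held 6 matches of CCAAT, 5 of them on the opposite strand as ATTGG, 2 of TTTGAA and 1 of AGATAA. The Bcl11b window held 2 matches of TTTGAA and the Il2ra window 1, and neither held any of the other motifs. Of 32851 promoter windows of this length, 37.4% held CCAAT, 17.9% TTTGAA, 51.4% CAGNTG and 11.2% AGATAA. A match describes the letters of the window and no more.

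The share of cells with Trbc RNA differed between spleen clusters. The share of cells with at least 3 Trbc UMIs was 21.3% in HSC-3 (17.5 to 25.5), 18.0% in HSC-2 (15.3 to 21.0) and 8.28% in DCP (5.43 to 12). It was 90.8% in LP (88.4 to 92.8), 4.03% in HSC-1 and 2.36% in MEP. In MCP it was 5.61% (3.84 to 7.86) at a median of only 1827 UMIs, an interval that overlaps that of DCP. In MP, whose cells carried 19966 CPM of the MHC class II chain Cd74, it was 0.708% (0.340 to 1.30) at a median of 10725 UMIs, close to the 13021 of the 3 clusters together. These shares are what the rule used and are a description; how far stray UMIs add to them was not tested. In bone marrow, 1 of 3758 cells of the same clusters passed the rule (0.0266%), and that cell had no UMI of Tcf7, Ly6d or Il7r. The median depth of these bone marrow clusters was lower, at 9081 UMIs, and tissue and library cannot be told apart.

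**Figure D1:**
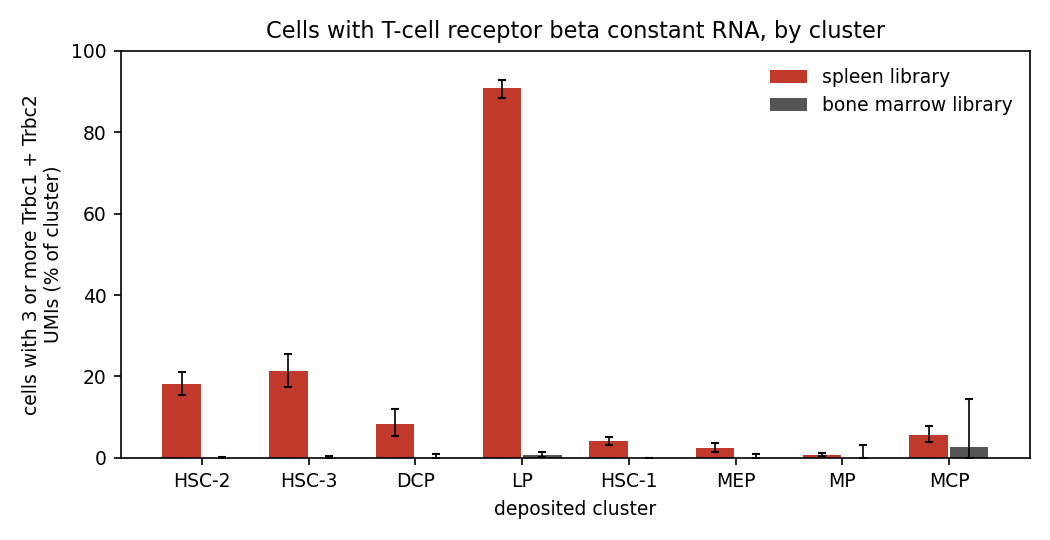
Share of cells with 3 or more UMIs of Trbc1 plus Trbc2 (%) in each deposited cluster, in the spleen and the bone marrow library; error bars are 95% Clopper-Pearson intervals. In spleen the share was 90.8% in LP, 21.3% in HSC-3, 18.0% in HSC-2 and 8.28% in DCP, and in bone marrow only 1 cell of HSC-2, HSC-3 and DCP passed.

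The cut at 3 UMIs fell in a gap. Of the 1457 spleen cells in these clusters, 1125 had no Trbc UMI, 79 had 1 and 6 had 2, while 4 had 3 and 214 had at least 10. The T-lineage cycling cells had a median of 24 Trbc UMIs (3 to 88), against 21 in LP. Just inside the cut, 10 of 13 cells with 3 to 5 UMIs also held a UMI of Tcf7, Ly6d or Il7r, and just outside it 12 of 85 cells with 1 or 2 UMIs did. At 10 or more UMIs, 211 of 214 cells did. These counts were used by the rule or follow from it and are given as description.

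The T-lineage name was checked against 8 markers that the rule did not use: Tcf7, Ly6d, Cd3e, Cd3g, Cd3d, Bcl11b, Lck and Il7r. At least 3 of the 8 were detected in 210 of 247 T-lineage cycling cells (85.0%, 80.0 to 89.2) and in 604 of 693 LP cells (87.2%), against 10 of 1210 cells of the rest (0.826%). A single T-lineage cycling cell had none. The defining CD3 chains were sparse: Cd3e, a signalling chain of the receptor complex, gave 21 UMIs in the T-lineage cycling cells, 19 in LP and 0 in the rest. The sort genes were present, Kit in 91.5% of T-lineage cycling cells, 79.8% of LP and 89.5% of the rest. Thinned to 1 depth, Kit was detected in 66.0% of the T-lineage cycling cells and 70.2% of LP.

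Cells of mixed content occurred among them. Scrublet, which scores cells by their likeness to simulated doublets, marked 20 T-lineage cycling cells (8.10%), 16 LP cells (2.31%) and 25 of the rest (2.07%), and none were removed. The 7 T-lineage cycling cells with an atlas label of dendritic cell together held 1272 of the 1697 UMIs of Cd74, the invariant chain of MHC class II, found in the T-lineage cycling cells. Of these 7, Scrublet marked 6 (85.7%), against 4 of 162 cells with a T-cell or thymocyte label (2.47%) and 10 of 76 with a multipotent or stem label (13.2%). At least 20 UMIs of dendritic, mast, granulocyte or erythroid markers, Cpa3 left out and the limit chosen after seeing the data, were held by 29 T-lineage cycling cells (11.7%), 57 LP cells (8.23%) and 483 of the rest (39.9%). Both this limit and the planned one were applied to all UMIs of a cell, not thinned, and LP cells were shallower. At the planned limit of 3 UMIs, Cpa3 included, 220 T-lineage cycling cells (89.1%), 584 LP cells (84.3%) and 1039 of the rest (85.9%) held such markers. The part of such cells in each result was not tested beyond the values given with and without them.

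Beta-chain RNA gave the most receptor UMIs, which the rule that chose these cells by Trbc UMIs favours. Their Trbc levels, and those of the rest, follow from the rule and are given as description. LP cells were not chosen by Trbc UMIs. Trbc1 (chromosome 6, 41538218 to 41539881, plus strand, mm10) gave 3927 UMIs in the T-lineage cycling cells, 10378 in LP and 46 in the rest, or 1160, 1757 and 2.69 CPM. Trbc2 (41546730 to 41548352) gave 814 CPM in the T-lineage cycling cells, 820 in LP and 2.63 in the rest. Trbc1 was thus 0.660 times its LP level (0.636 to 0.685) while Trbc2 was 0.992 times (0.947 to 1.04). These constant genes are near-identical in sequence, so the division of UMIs between them is uncertain. Both were seen in 197 of 247 T-lineage cycling cells (79.8%, 74.2 to 84.6) and in 520 of the 629 LP cells with at least 3 Trbc UMIs (82.7%). Only Trbc1 was seen in 28 T-lineage cycling cells and only Trbc2 in 22.

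Alpha-chain RNA was nearly absent and delta- and gamma-chain RNA moderate. Trac (chromosome 14, 54220521 to 54224206, plus strand) gave 1 UMI in the T-lineage cycling cells, 11 in LP and 1 in the rest. Trdc, the delta constant gene (54142851 to 54148868 on the same chromosome), gave 79.5 CPM in the T-lineage cycling cells, 161 in LP and 0.409 in the rest. Its ratio to LP was 0.493 (0.429 to 0.565) and to the rest 194 (93.0 to 488). The log2 difference of Trdc to LP was −1.01, and −0.60 without the HSC-2 cells or −0.49 against only the LP cells called S, G2 or M. It was detected in 49.4% of T-lineage cycling cells and 54.8% of LP cells, or 27.1% and 42.3% after thinning, and in 0.579% of the rest.

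The 3 gamma constant genes on chromosome 13 were all lower than in LP. Tcrg-C2 had 70.0 CPM in the T-lineage cycling cells, 118 in LP and 0.234 in the rest. Tcrg-C4 had 34.0 CPM, 107.5 CPM and no UMI, which put it at 0.316 times LP (0.257 to 0.386) and at least 194-fold above the rest, with a floor of 3 UMIs over that group. Tcrg-C1 had 47.6, 76.9 and 4.32 CPM in the same order, but it was not specific to T-lineage cells here: spleen MEP cells had 116.9 CPM and a UMI in 67.5% of cells. The gamma constant genes resemble each other, so reads may be split between them. Variable segments were scarce in this 3′ assay, with 36 UMIs over 35 Trbv genes, 38 over 7 gamma genes, 3 over 128 Trav genes and 0 over 6 Trdv genes in the T-lineage cycling cells.

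Cd3g, another CD3 chain, ran the other way. It had 57.9 CPM in the T-lineage cycling cells, 20.3 in LP and no UMI in the rest, a ratio to LP of 2.85 (2.26 to 3.61). The sum came from few cells: 28 T-lineage cycling cells (11.3%) and 74 LP cells (10.7%) had a UMI, and 10 cells held 86.2% of the Cd3g UMIs of the T-lineage cycling cells, up to 38 in a cell. Its log2 ratio to LP was 1.47, and 0.99 without the 25 DCP cells. Cd247, the zeta chain, had 35.2 CPM in the T-lineage cycling cells, 69.6 in LP and 1.17 in the rest. Within the receptor complex, then, Cd3g stood above LP in sum but not in the share of cells, and Cd247 stood below. Nothing is read from Trbc1, by which the cells were chosen.

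**Figure D2:**
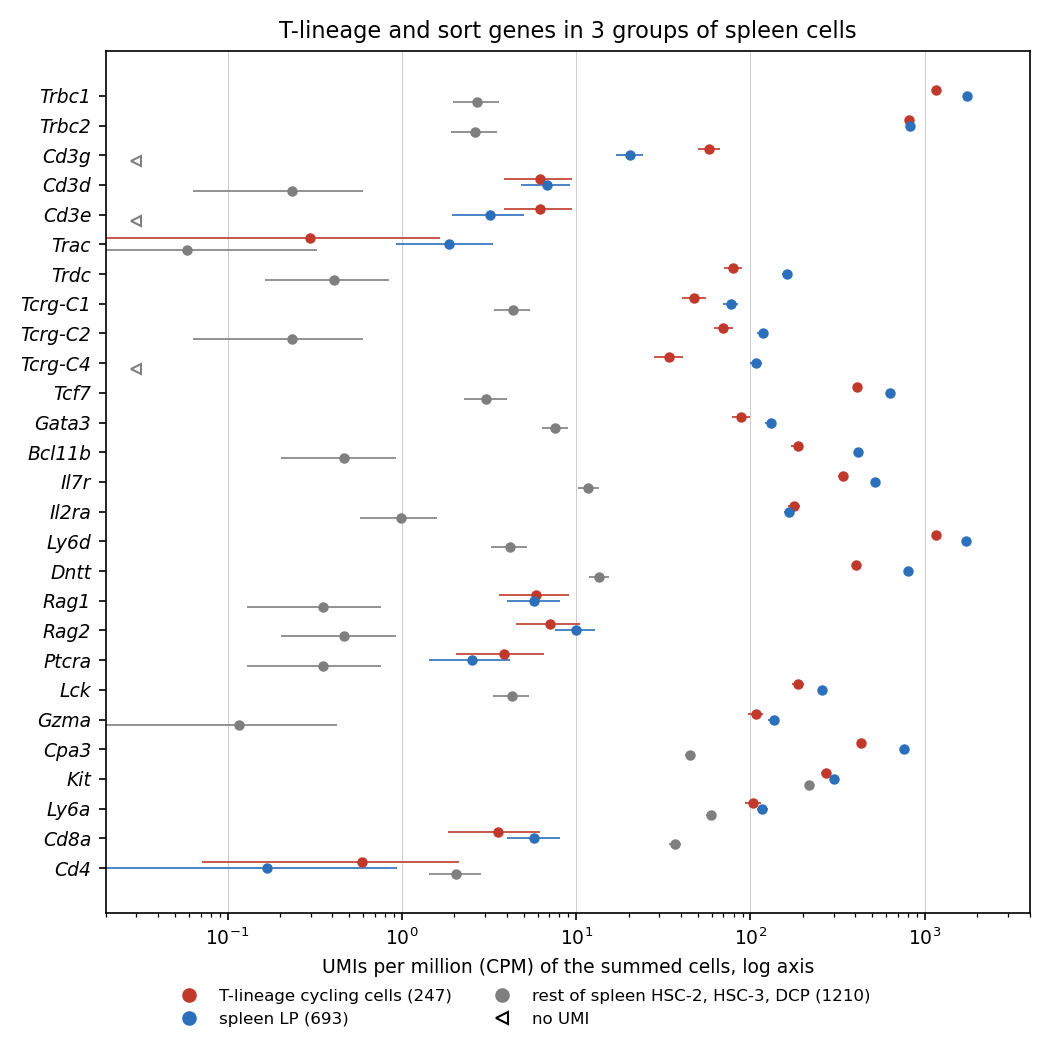
Level in CPM of the summed cells (log axis) for receptor, T-lineage, early lymphoid, sort and lineage genes in the T-lineage cycling cells (red), spleen LP (blue) and the rest (grey); bars are 95% Poisson intervals and open triangles mark groups with no UMI. For Trbc1, Tcf7, Bcl11b and Ly6d the red points lie close to and left of the blue ones and far right of the grey ones, and Cd3g is right of LP.

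Regulators of T-lineage commitment were close to, and mostly below, LP levels. Tcf7, the factor that Notch switches on first, had 409 CPM in the T-lineage cycling cells, 635 in LP and 3.04 in the rest. It was detected in 89.5% of T-lineage cycling cells, 89.2% of LP and 2.40% of the rest, and after thinning in 77.5%, 84.2% and 0.841%. Tcf7 was therefore near universal in both T-lineage groups at 0.644 times the LP level (0.606 to 0.686).

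Bcl11b was the commitment regulator furthest below LP. It had 186 CPM in the T-lineage cycling cells, 416 in LP and 0.468 in the rest, a ratio to LP of 0.447 (0.409 to 0.488) and to the rest of 398 (201 to 926). Its UMIs were seen in 42.5% of the T-lineage cycling cells against 60.9% of LP, 36.9% against 55.3% after thinning, and in 0.496% of the rest. Its log2 difference to LP was −1.16, and −0.51 against only the 274 LP cells called S, G2 or M. With only the T-lineage cycling cells that had a T-cell or thymocyte label, and LP not limited by label, it was −0.61. It was −0.62 without the HSC-2 cells and −1.59 without the HSC-3 cells.

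Gata3, needed from the earliest T-lineage stages, had 88.3 CPM in the T-lineage cycling cells, 131 in LP and 7.60 in the rest. Against LP cells called S, G2 or M it did not differ beyond counting error, with a ratio of 0.951 (0.802 to 1.13). Notch1, the receptor that starts the programme, had 257 CPM in the T-lineage cycling cells, 412 in LP and 31.9 in the rest. Dtx1, a Notch target, was the exception above LP, with 33.7 CPM in the T-lineage cycling cells and 14.4 in LP, a ratio of 2.34 (1.75 to 3.14). Of 15 measured genes of the commitment list, 1 was at least 1.5-fold above LP and 5 were below, with a median log2 ratio of −0.44. Over all 8394 genes measured, averaging 10 CPM or more over both groups, 8.33% were at least 1.5-fold higher and 7.64% lower and the median was −0.06.

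Early lymphoid genes were shared with LP at lower levels. Ly6d, a surface protein of lymphoid-primed progenitors, had 1155 CPM in the T-lineage cycling cells, 1715 in LP and 4.15 in the rest, and was detected in 79.8%, 80.7% and 3.97% of cells. Il7r, the receptor for interleukin-7, had 339, 519 and 11.7 CPM in the same order. Dntt, the polymerase that adds bases at receptor gene joints, had 403 CPM in the T-lineage cycling cells and 803 in LP, a ratio of 0.501. Against LP cells called S, G2 or M the ratio of Dntt was 0.487 (0.455 to 0.521). The thymus-homing receptor Ccr9 had 57.0 CPM and 194 CPM, a ratio of 0.294 (0.251 to 0.342). Both depended on cluster: the log2 difference of Dntt to LP was −0.99, −0.40 without HSC-2 and −1.49 without HSC-3, and that of Ccr9 was −1.75, −1.14 and −2.25. The early lymphoid list had 0 of 13 measured genes at least 1.5-fold above LP and 6 below, with a median of −0.57.

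The recombinase itself was scarce. Rag1 gave 20 UMIs in the T-lineage cycling cells, 34 in LP and 6 in the rest, and Rag2 gave 24, 59 and 8. Ptcra, the surrogate alpha chain, gave 13, 15 and 6. Cd4 gave 2 UMIs in the T-lineage cycling cells and 1 in LP, and Cd8a 12 and 34. Neither coreceptor of mature T cells was thus present in any quantity in the T-lineage cycling cells. The rest had 629 UMIs of Cd8a, and the log2 ratio to the rest was −3.06, or 0.0023 once cells with at least 20 UMIs of other lineage markers were left out of both groups. The latter value rests on few UMIs, and no likeness of levels is read from it.

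Several other genes marked the T-lineage cycling cells off from the rest of their clusters. Il2ra had 178 CPM in the T-lineage cycling cells, 166 in LP and 0.993 in the rest. Thinned, it was seen in 37.3% of the T-lineage cycling cells and 36.5% of LP. Lck, the kinase that starts receptor signalling, had 187, 256 and 4.27 CPM in the same order. Gzma, a granzyme of cytotoxic and innate-like lymphocytes, gave 362 UMIs in the T-lineage cycling cells, 801 in LP and 2 in the rest, with 68.2% of the 362 in 10 cells. Trat1, an adaptor that binds the receptor complex, had 107.5 CPM in the T-lineage cycling cells, 165 in LP and 0.234 in the rest.

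Against LP, 354 of 8394 genes were at least 2-fold higher in the T-lineage cycling cells (4.22%) and 108 were at least 2-fold lower (1.29%). The sources used here do not say from which genes the clusters were made. If division genes were among them, this contrast in part restates how the cells were chosen. Nothing is tested. Of the 354 higher genes, 112 belonged to the S-phase, G2 and M, or histone lists (31.6%), of which 125 genes were measured. Nearly all measured genes of these lists were therefore among the higher genes.

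Genes of S phase were higher almost without exception. Of 42 measured, 39 were at least 1.5-fold above LP and 0 below, with a median log2 ratio of 1.51. Rrm2, a subunit of the enzyme that makes deoxynucleotides, had 87.7 CPM in the T-lineage cycling cells and 4.06 in LP, a ratio of 21.6 (14.2 to 34.2). Pcna, the sliding clamp of DNA polymerases, had 122 and 44.0 CPM. E2f2, a factor of the E2F family that turns on S-phase genes, was 5.51-fold higher (3.67 to 8.47).

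Genes of G2 and M phase differed more. Of 50 measured, 48 were above LP and 0 below, with a median of 2.45. Mki67, the proliferation antigen, had 771 CPM in the T-lineage cycling cells and 69.6 in LP. Top2a, whose promoter is shown above, had 843 and 67.0 CPM, a ratio of 12.6 (11.3 to 14.0). Kif11, a motor of the mitotic spindle, was 26.4-fold higher (18.5 to 38.8), and Esco2, which acetylates cohesin in S phase, 42.2-fold higher (22.6 to 89.2). Without the HSC-3 cells the log2 ratios were 2.41 for Top2a in place of 3.63, 2.26 for Mki67 in place of 3.45, and 2.46 for Esco2 in place of 4.75. Against LP cells called S, G2 or M, Top2a was still 8.18-fold higher (7.24 to 9.28) and 48 of 50 genes of the list were above.

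Replication-dependent histones were also higher, but by way of a single cluster. Of 33 measured, 32 were above LP and 1, Hist1h2bc, below, with a median of 2.44. Hist1h1b, a linker histone, had 1161 CPM in the T-lineage cycling cells and 55.4 in LP, a ratio of 21.0 (18.7 to 23.6). Without the HSC-3 cells the list's median was 0.03 and the log2 ratio of Hist1h1b was 1.18, against 4.37 with them. The copies of each histone are near-identical, so UMIs of single copies are uncertain. Most of these RNAs lack a poly(A) tail in normal cells, and an assay that primes on poly(A) RNA may record only part of them.

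**Figure D3:**
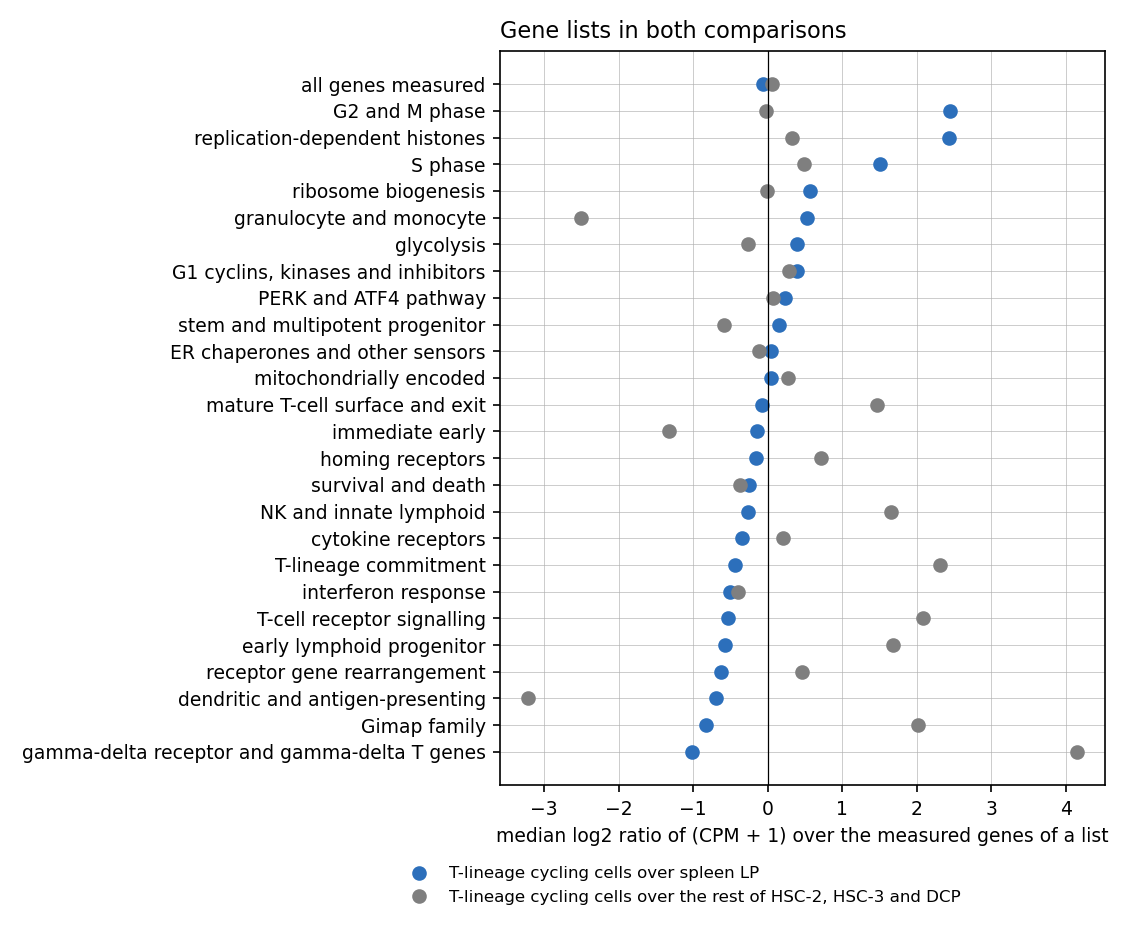
Median log2 ratio of (CPM + 1) over the measured genes of each gene list with at least 5 measured genes, for the T-lineage cycling cells over spleen LP (blue) and over the rest (grey). Division lists stand to the right of zero over LP, up to 2.45 for G2 and M, and most T-cell lists to the right over the rest, while the dendritic list stands at −3.22 over the rest.

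Genes lower than in LP included several of receptor signalling and innate-like lymphocytes. Rora, a nuclear receptor of innate lymphoid and some T cells, had 23.9 CPM in the T-lineage cycling cells and 81.1 in LP, a ratio of 0.295 (0.230 to 0.374). Themis, an adaptor of thymocyte selection, had 47.9 CPM in the T-lineage cycling cells and 128 in LP. Zbtb16, the factor of innate-like T cells, had 34.9 and 82.0 CPM. The receptor signalling list had 0 of 13 measured genes at least 1.5-fold higher and 6 lower (median −0.53), and the gamma-delta list 0 of 7 higher and 6 lower (median −1.01). The NK and innate lymphoid list was mixed, with 1 of 10 higher and 3 lower (median −0.26). Klrd1, an NK-cell receptor chain, ran the other way from Rora, at 2.21 times LP.

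Against LP cells called S, G2 or M, the median differences of these T-cell lists were smaller, but some genes differed more. Klrd1 was then at 4.31 times LP (2.51 to 7.88) and Cd3g at 3.70 (2.65 to 5.27). Gzma was above these LP cells at 1.46 (1.23 to 1.75), while it was below all LP at 0.788. Division was not matched in that comparison. Top2a had 843 CPM in the T-lineage cycling cells and 103 in these LP cells, and Mki67 771 and 125 CPM. Against LP cells called S, G2 or M, the medians were −0.21 for receptor signalling, −0.41 for the gamma-delta list and −0.28 for commitment, and 25 genes in all were at least 2-fold lower in the T-lineage cycling cells. Ccr9 (0.470, 0.392 to 0.563), Tcrg-C4 (0.464, 0.366 to 0.587) and Dntt remained lower, and Rora was at 0.603 (0.447 to 0.811). The 7 measured Gimap genes, GTPases of lymphocyte survival, had 0 higher and 5 lower than all LP, with Gimap4 at 3.54 CPM in the T-lineage cycling cells and 19.5 in LP.

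Lists of other programmes differed from LP to varying degrees. Over all genes measured, 8.33% were at least 1.5-fold higher than in LP and 7.64% lower. The counts of higher genes for glycolysis and chaperones were near that share, and nothing is read from them. The dendritic list had 0 of 9 genes higher and 6 lower (median −0.69), and receptor gene rearrangement 0 of 7 higher and 4 lower (median −0.62). The granulocyte list had 3 of 6 higher and 1 lower (median 0.53). With only the T-lineage cycling cells that had a T-cell or thymocyte label the dendritic median was −2.29 and the granulocyte median −0.70. LP was not limited by label and kept its 25 cells with a dendritic label. The labels come from the same counts, so these 2 medians in part follow from that choice. Ribosome biogenesis genes had 4 of 11 higher and 0 lower (median 0.57) and glycolysis 1 of 10 higher (median 0.40). The stem and multipotent list had 2 of 13 higher and 0 lower, the higher genes being Gata2, with 18.0 CPM in the T-lineage cycling cells and 7.28 in LP, and Hlf, with 39.9 and 20.8 CPM. Both are regulators of stem and early progenitor cells. Hlf had 58.1 CPM in the T-lineage cycling cells with a multipotent or stem label and 28.5 in those with a T-cell or thymocyte label. The PERK and ATF4 stress pathway had 3 of 9 higher and 1 lower (median 0.23), and the chaperone list 1 of 13 higher (median 0.04). The authors' deposited endoplasmic reticulum stress score had a median of 0.0921 in both groups, and their stemness score 0.394 in the T-lineage cycling cells and 0.0504 in LP.

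Phase calls followed the clusters. Thinned to 5200 UMIs, 244 T-lineage cycling cells had a phase, and 52.0% were called S, 38.5% G2 or M and 9.43% G1. S, G2 or M together made 90.6% (86.2 to 93.9), against 43.4% of 631 LP cells (39.5 to 47.4) and 91.7% of 1189 cells of the rest (90.0 to 93.2). On all UMIs the share in T-lineage cycling cells was 93.1%. HSC-3 cells among them were 68.5% G2 or M and 31.5% S, HSC-2 cells 6.15% and 76.2%, and all 25 DCP cells were called G2 or M. Phase calls read UMIs that may come from other cells, and the clusters themselves may rest on these genes.

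**Figure D4:**
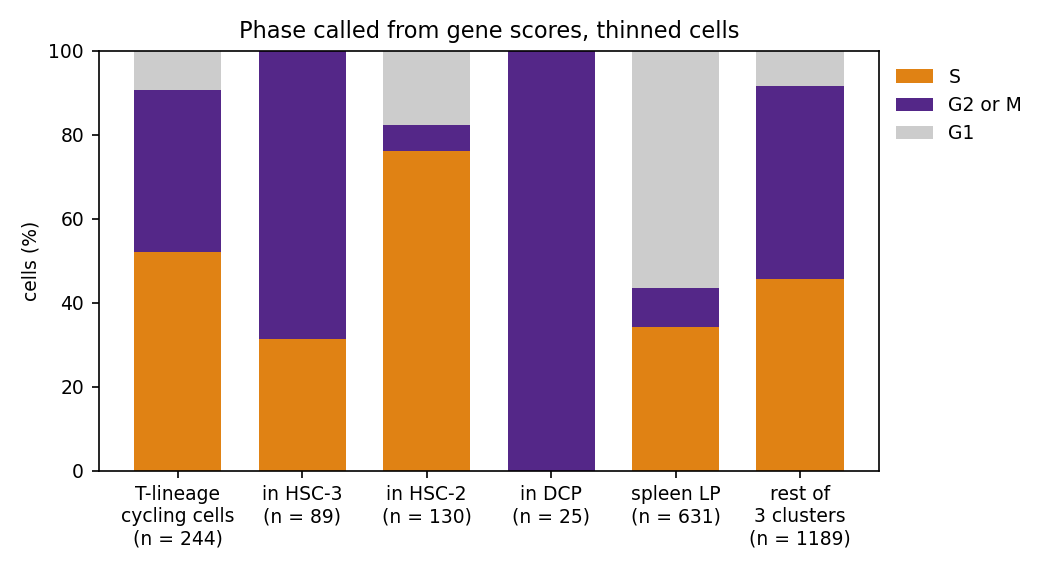
Share of cells (%) called S, G2 or M, and G1 from gene scores after thinning, in all T-lineage cycling cells, those of HSC-3, HSC-2 and DCP, spleen LP and the rest. S, G2 and M together make 90.6% of the T-lineage cycling cells, 43.4% of LP and 91.7% of the rest.

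Against the rest of their own clusters, 298 of 8464 genes were at least 2-fold higher in the T-lineage cycling cells (3.52%) and 475 lower (5.61%). None of the 298 was in a division list, where 133 genes were measured. The G2 and M list had a median log2 ratio of −0.02 (−0.63 without HSC-3), with 2 of 51 genes at least 1.5-fold higher and 1 lower. The S-phase list had a median of 0.49 with 8 of 43 genes higher, and the histone list 0.33 with 6 of 39 higher. Over all genes 9.01% were at least 1.5-fold higher and 10.5% lower, with a median of 0.05.

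T-cell lists were higher than in the rest to differing degrees. At least 1.5-fold higher were 14 of 15 measured commitment genes (median 2.31, 19 in the list), 8 of 10 signalling genes with 1 lower (median 2.08, 18 in the list) and 6 of 6 Gimap genes (median 2.02, 8 in the list). Of the 13 gamma-delta genes 6 were measured and all 6 were higher. Genes such as Trdc, Tcrg-C2 and Tcrg-C4 passed the filter on low values only through the T-lineage cycling cells, so such counts were in part fixed by the filter and support nothing. Receptor gene rearrangement had 3 of 7 higher and 0 lower (median 0.46). The mature T-cell surface list was mixed, with 4 of 7 higher and 3 lower (median 1.48, or −0.12 with no minimum level). Its lower genes included Cd8a and Klf2, a factor of resting T cells, with 44.3 CPM of Klf2 in the T-lineage cycling cells and 102 in the rest. The early lymphoid list had 9 of 13 higher and 1 lower, the lower being Flt3, a cytokine receptor of multipotent and dendritic progenitors, with 63.5 CPM in the T-lineage cycling cells and 123 in the rest. Cdkn1a, an inhibitor of cell-cycle kinases, had 70.9 and 20.7 CPM, and Bcl2, a survival factor of lymphocytes, 204 and 74.9 CPM. These contrasts follow the same split that chose the cells.

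Myeloid and dendritic genes were lower than in the rest. The dendritic list had 0 of 13 higher and 13 lower (median −3.22), and Cd74 had 501 CPM in the T-lineage cycling cells and 5677 in the rest. With cells of at least 20 UMIs of other lineage markers left out of both groups, which takes 483 cells from the rest, the list's median was 0.86 and the log2 ratio of Cd74 was 0.74 in place of −3.50. Xcr1 and Cd8a, both genes of cross-presenting dendritic cells, then stood at 0.0036 and 0.0023 and Id2, a factor of innate lymphoid and dendritic cells, at 1.97 in place of −1.67. The filter reads dendritic markers, Cd74 among them, so these shifts in part follow from it. Of the 12 Cd8a UMIs in the T-lineage cycling cells, 11 lay in the 7 cells with a dendritic label. No likeness of levels is read from either ratio near zero. The granulocyte list had 0 of 8 higher and 7 lower (median −2.50). It was −0.98 with cells of at least 20 UMIs of other lineage markers, granulocyte markers included, left out. Elane, neutrophil elastase, gave 2 UMIs in the T-lineage cycling cells and 929 in the rest, a ratio of 0.0109 (0.00132 to 0.0394). Its log2 ratio was −5.12, but −0.17 without the HSC-2 cells of both groups. Immediate early genes were also lower, 5 of 7 with 0 higher, and Fos had 66.8 CPM against 301.

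Some myeloid and erythroid RNA remained. Mpo, a granule enzyme of granulocyte precursors, had 50.5 CPM in the T-lineage cycling cells, 14.1 in LP and 158 in the rest, and was seen in 23.5% of the T-lineage cycling cells. In T-lineage cycling cells with a multipotent or stem label it had 116 CPM, against 18.8 in those with a T-cell or thymocyte label. With only the T-labelled cells, and LP not limited by label, the log2 ratio of Mpo to LP was 0.40, in place of 1.78 for all. Hbb-bt, a beta-globin gene, had 545 CPM in the T-lineage cycling cells, 177 in LP and 126 in the rest, and 35 T-lineage cycling cells had 20 UMIs or more. The partner genes were nearly absent, with 7 UMIs of Hbb-bs, 0 of Hba-a1 and 2 of Hba-a2 in the T-lineage cycling cells, and the globin genes of a pair are near-identical. Cpa3, a protease known from mast cells, had 432 CPM in the T-lineage cycling cells, 756 in LP and 45 in the rest, while Cma1, a mast-cell chymase, had 23.3, 36.4 and 26.1 CPM. Over whole lists, at least 3 UMIs of 4 erythroid markers were held by 0.405% of T-lineage cycling cells, and of 4 granulocyte markers by 17.8%, 3.90% of LP and 45.5% of the rest. Their summed granulocyte levels were 137, 48.6 and 728 CPM. At least 3 UMIs of 5 dendritic markers were held by 61.1% of T-lineage cycling cells, 43.3% of LP and 59.9% of the rest, with summed levels of 1424, 2631 and 14691 CPM. Of 5 NK or innate lymphoid markers 36.4%, 22.8% and 35.5% held as many, and of 5 B-lineage markers 4.45%, 2.60% and 0.826%. Nearly all UMIs of the NK or innate lymphoid markers in the T-lineage cycling cells were of Nkg7, a granule protein of cytotoxic cells. It gave 550, against 10 of Il1rl1, 8 of Ncr1, 5 of Klrb1c and 2 of Eomes. The shares of all these lineages are on all UMIs of a cell, not thinned, and LP cells were shallower, so depth enters shares set against LP. Of all these markers 1 of the B-lineage was at 0 in the T-lineage cycling cells. Their part in the results was not tested.

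Division genes differed between the T-lineage cycling cells of HSC-3 and those of HSC-2, as did other genes. Of 8240 genes, 417 were at least 2-fold higher in the HSC-3 cells (5.06%) and 234 lower (2.84%), and 98 of the 417 (23.5%) and 1 of the 234 were in division lists. At 1.5-fold, 11.5% of all genes were higher and 10.6% lower. The histone list had 40 of 41 genes higher (median 3.66) and the G2 and M list 50 of 51 (median 2.66). Hist1h1b had 2854 CPM in the HSC-3 cells and 115 in the HSC-2 cells, and Mki67 1480 and 119 CPM. Ung, a DNA repair enzyme of early S phase, ran the other way, with 7.01 and 74.2 CPM, as did Ccnd2, a cyclin of G1, with 132 and 429 CPM.

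Some T-lineage genes differed between these clusters and others did not pass 1.5-fold. Of the commitment list 3 of 15 measured genes were at least 1.5-fold higher in the HSC-3 cells and 0 lower (median −0.01), of receptor signalling 6 of 14 higher and 1 lower (median 0.50), and of the receptor complex 0 of 4 either way. The dendritic list was also higher in the HSC-3 cells, 7 of 8 genes with 0 lower (median 1.01), and Cd74 had 619 CPM in the HSC-3 cells and 263 in the HSC-2 cells. Of the 7 T-lineage cycling cells with a dendritic label, 4 lay in HSC-3 and 1 in HSC-2, and values of this list without them are not given here. The part of dendritic RNA in the other differences was not tested. Bcl11b had 265 CPM in the HSC-3 cells and 105 in the HSC-2 cells, a ratio of 2.52 (2.10 to 3.03), and 295 CPM in the DCP cells. Its UMIs were seen in 59.6%, 26.3% and 68.0% of the cells in that order. Dntt had 595 CPM in the HSC-3 cells and 206 in the HSC-2 cells, Themis 81.8 and 23.6 CPM, and Thy1, a surface antigen of T cells, 82.6 and 19.6 CPM. Trbc1 did not follow, with 1203 CPM in the HSC-3 cells and 1150 in the HSC-2 cells, a ratio of 1.05 (0.978 to 1.12), and Tcf7 was lower at 0.694 (0.615 to 0.782). All these cells had been chosen for Trbc UMIs, so nothing is read from the Trbc1 ratio. Mpo had 12.5 CPM in the HSC-3 cells and 74.2 in the HSC-2 cells, and Kit 235 and 298 CPM.

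Other genes were detected in different shares of the T-lineage cycling cells with and without Bcl11b. These shares are on all UMIs of a cell, not thinned. Cells with a Bcl11b UMI (105, median 13021 UMIs) and without (142, median 13202) differed in Trdc, found in 71.4% and 33.1% of them, and in Gzma, found in 37.1% and 5.63%. Trat1 was found in 72.4% and 32.4%, and Il2ra in 66.7% and 40.8%. Tcf7 was common to both, 91.4% with and 88.0% without, as was Kit, 89.5% and 93.0%. Flt3 ran opposite, 16.2% with and 48.6% without, and so did Cd34, a surface marker of early progenitors, 57.1% and 87.3%. LP cells, with medians of 7088 UMIs with Bcl11b and 9064 without, had Trdc in 70.9% and 29.9% and Flt3 in 20.1% and 62.0%. These pairings were chosen after their values were seen.

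**Figure D5:**
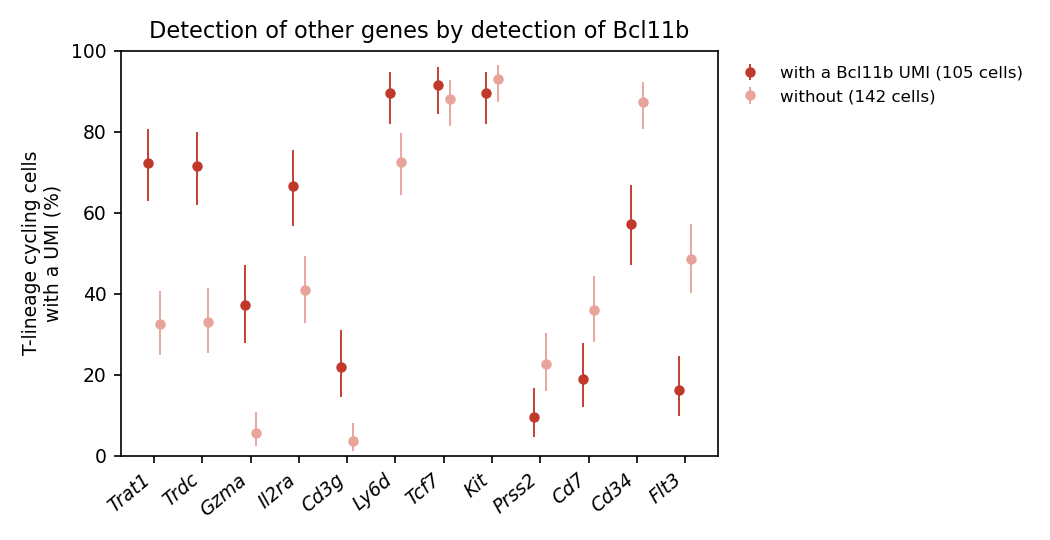
Share of T-lineage cycling cells with a UMI of each gene (%), for the 105 cells with a Bcl11b UMI (dark) and the 142 without (light); bars are 95% Clopper-Pearson intervals. Trat1, Trdc, Gzma and Il2ra are higher with Bcl11b, Cd34 and Flt3 higher without, and Tcf7 and Kit overlap.

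The authors' deposited atlas labels placed most of these cells with thymocytes. The label of gamma-delta T cells of thymus was given to 112 of 247 (45.3%), proliferating thymocyte to 46 (18.6%), a bone marrow multipotent progenitor to 46 and a fetal-liver stem and progenitor cell to 30. Any T-cell or thymocyte label was held by 162 (65.6%, 59.3 to 71.5), against 540 LP cells (77.9%) and 5 of the rest (0.413%). By cluster these were 76.4% in HSC-3, 56.4% in HSC-2 and 76.0% in DCP. A second set of labels called 47 of the 247 T cells (19.0%), 386 of 693 LP cells (55.7%) and 6 of the rest (0.496%). Of the 247, the second set called 65 HSC-1 (26.3%), 54 HSC-2 (21.9%) and 41 HSC-3 (16.6%). These label names are separate from the deposited clusters.

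The first set of labels divided the cells along several genes at once. The 162 cells with a T-cell or thymocyte label had 271.5 CPM of Bcl11b, against 32.2 CPM in the 76 with a multipotent or stem label, and 110 against 28.6 CPM of Trdc. Trbc1 was closer, 1370 against 911 CPM, and Tcf7 had 490.5 against 302 CPM. Gzma gave 360 UMIs in the cells with a T-cell label and 1 in those with a multipotent or stem label, and Cd34 had 134 against 306 CPM. The cells with a multipotent or stem label had Tcf7 RNA with little Bcl11b, while their Trbc RNA was required by the rule that chose them. Labels and levels come from the same counts and are not independent.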

How the data were processed

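Spleen and bone marrow LSK cells gave 1 library each. Per the series design text, reads (about 27000 per cell) were aligned to mm10 and counted with Cell Ranger 3.1.0, and the authors deposited raw UMI counts for 31053 genes, of which 31011 identifiers matched a symbol. The submitters' processing notes name Seurat 3.1.5 and mm9; coordinates here are those of mm10. Per the series design text the kit was version 3, and per the labels' protocols version 3.1. The cell table deposited by the authors gave clusters, atlas labels and scores, among them the stemness score; how the labels, score genes and clusters were made is not given in the sources used here, and pseudotime was not used.

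UMIs were summed per group, scaled to 1000000 (CPM), and compared as log2 ratios with a pseudocount of 1 CPM. A gene counted as measured where the 2 groups averaged 10 CPM or more, with calls at 2-fold (genes) and 1.5-fold (members of 31 lists). With 1 library no test was possible. Cells were thinned to 5200 UMIs, which left out 3 T-lineage cycling cells, for shares and for phases (scanpy 1.11.5). Scrublet (threshold 0.221) marked 186 spleen cells (2.84%), none removed. TMM factors came from edgeR 4.0.16, other steps from Python 3.11.15, numpy 2.4.6 and scipy 1.17.1. Ratios and intervals were tested on simulated counts.

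Members and lists were chosen with earlier results of these data known. Named genes were a fixed set and, in each comparison, the 12 highest and 12 lowest ratios among genes of at least 50 CPM in 1 or both groups (without predicted Gm and Rik genes), and the 2 extreme members at each end of a list. Other genes (Tcrg-C2, Tcrg-C4, Cd34, Flt3 and Thy1 among them) and the comparison of HSC-3 with HSC-2 were chosen after values were seen.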

Additional observations from a re-analysis of the deposited data

How the results depend on the processing

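Low genes and cell-to-cell counting error limit what can be seen, and no value has a replicate check. No paired analysis was possible because each tissue has 1 library and, apart from the Trbc shares, all comparisons are within spleen. Of the list medians over all alternatives 753 stayed within 1.5-fold, 58 moved further and 3 changed sign; of named genes 1627, 468 and 10 did, by their counting intervals. Scrublet, TMM, a Trbc limit of 2 or 5 UMIs, equal weights and leaving out DCP moved no count by over 1.5 times. Counts of genes at least 2-fold higher and lower are given in that order. Thinning gave 186 lower than LP and 680 and 516 for HSC-3 over HSC-2. A pseudocount of 5 CPM gave 55 lower than LP and 130 lower in HSC-3. A minimum of 50 CPM gave 116 and 29 over LP, 100 and 116 over the rest and 160 and 34 for HSC-3. No minimum gave 564 and 453, 660 and 1206, and 1011 and 1186, by construction more genes, and the mature T-cell list stood at −0.12 over the rest. Without HSC-2, 114 cells were left, 100% of them S, G2 or M, and 570 genes were higher than in the rest. Without HSC-3, 158 cells were left with 85.2%. Leaving out cells with at least 3 UMIs of another lineage left 27 cells with 84.6%, and 834 and 836 genes over LP, 703 and 898 over the rest and 1476 and 1566 for HSC-3. Over the rest Rab7b then stood at 2.28, Zbtb16 at −0.16, Mpo at 2.45, Id2 at 3.53, Btla at 0.57 and the immediate early list at 0.38. At 20 UMIs, a limit chosen after seeing the data, Pid1 stood at 0.15, Cd8a at 0.0023, Xcr1 at 0.0036, Id2 at 1.97, Cd74 at 0.74 and the dendritic list at 0.86. Both limits read dendritic, mast, granulocyte and erythroid markers, so shifts of such genes in part follow from them. Against LP cells called S, G2 or M 25 genes were lower. The T-label cells, also chosen after seeing the data, numbered 162 and gave 398 lower in HSC-3. Other causes were not tested.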

Other observations

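Outside the comparisons of regulators, Fgf3 was higher in the T-lineage cycling cells than in the rest. Fgf3, a secreted growth factor, had 86.0 CPM in the T-lineage cycling cells, 97.7 in LP and 5.55 in the rest, and was seen in 39.7%, 29.1% and 5.95% of cells. Nkg7, a granule protein of cytotoxic cells, had 162, 183 and 152 CPM and did not set them apart. Klrd1, an NK-cell receptor chain, had 25.1 CPM in the T-lineage cycling cells and 11.4 in LP, a ratio of 2.21 (1.59 to 3.10).

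Neighbours of receptor genes were among the named genes. Prss2, a trypsinogen gene 13139 bases from Trbc1 on chromosome 6 (41521787 to 41525079, plus strand, mm10), gave 333 UMIs in the T-lineage cycling cells, 672 in LP and 10 in the rest. Its UMIs lay in few cells, with 84.4% of the 333 in 10 cells. Stard3nl, 4920 bases from Tcrg-C4 on chromosome 13 (19357676 to 19395795, minus strand), was at 0.358 times its LP level. Reads of these genes and of the receptor loci were not separated further.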
